A study of Mus musculus with 9 samples.

Results

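The genes described here are the Wnt ligands of the mouse, the proteins that receive them at the cell surface, and the components that carry the signal to the nucleus. They were chosen by symbol: every row of the deposited table named as a Wnt ligand, a Frizzled (Fzd) receptor, an R-spondin (Rspo), Lgr4, Lgr5 or Lgr6, a Dishevelled (Dvl) or an Axin, together with Lrp4, Lrp5, Lrp6, Apc, Gsk3b, Ctnnb1, Tcf7, Tcf7l1, Tcf7l2, Lef1, Znrf3, Rnf43 and Porcn. The rule found 54 of the 22183 genes in the table. Of these, 42 had enough reads to be tested and 12 did not.

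Wnt proteins are secreted after the acyltransferase Porcn has attached a lipid to them, and they bind a Frizzled together with Lrp5 or Lrp6. In the absence of a ligand, a complex of Axin, Apc and Gsk3b marks beta-catenin (the product of Ctnnb1) for destruction, and receptor engagement blocks that complex through Dishevelled, so that beta-catenin accumulates and acts with Tcf/Lef factors on target genes. In bone, this route favours osteoblast formation, and Wnt ligands made by bone cells also bear on osteoclasts, the cells that resorb bone.

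The samples were 9 poly(A)-selected RNA-seq libraries of whole mouse tibia in 3 groups of 3: naive tibiae with no treatment, tibiae treated with Titanium particles (Ti), and tibiae given Titanium particles and I-OG (Ti+I-OG). I-OG is an injectable hydrogel of natural polymers that carries irisin, a peptide linked to muscle. The design text gives 5 weeks of treatment with the hydrogel, and no such time is listed for the naive and Ti tibiae. The study concerns aseptic loosening, the bone loss around implants that wear particles bring about, and its design text names Wnt signalling among the pathways of interest. Strain, age and sex of the mice were not used here. The naive tibiae had no treatment of any kind and no group received the hydrogel without irisin, so particles and procedure, and irisin and carrier, cannot be told apart in these groups. No label says whether the 3 libraries of a group came from separate animals, and the p-values measure only the spread between these libraries, which may be technical.

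Library totals ran from 16256081 to 24766502 estimated counts, and 3 counts corresponded to 0.114 to 0.206 CPM (counts scaled to the depth of the library). Markers of the labelled tissue were present in every library: the summed level of 8 osteoblast genes was 1369 to 3034 CPM in naive, 5163 to 5950 in Ti and 3966 to 4653 in Ti+I-OG tibiae, and 6 erythroid genes of the marrow summed to 28037 to 93889, 68166 to 100664 and 166308 to 181194 CPM. Libraries stood apart within their groups for the Wnt genes. Naive replicate 3 was the lowest naive library for 26 of the 42 tested genes (61.9%, against 36.4% of all 14211 tested genes), and it was also the lowest for the osteoblast markers. Ti replicate 2 was the highest Ti library for 28 of 42 (66.7%, against 34.7% of all tested genes) and Ti replicate 3 the lowest for 25 of 42 (59.5%, against 38.8%).

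Per kilobase of transcript, the intracellular components were the most abundant of these genes and the ligands were scarce. Ctnnb1 had a mean level of 111 FPKM (fragments per kilobase, scaled to the depth of the library) over the 9 libraries, followed by Axin1 at 13.5, Gsk3b at 8.76, Dvl1 at 7.70 and the co-receptor Lrp5 at 6.37 FPKM. Among the receptors, Lrp6 had 4.08 and Fzd4 3.07 FPKM. The leading ligand, Wnt5b, reached 1.75 FPKM and Wnt4 reached 1.499 FPKM. In the plot of levels by gene and library, the order runs from Ctnnb1 down to ligands below 1 FPKM. Ctnnb1 shares exon sequence on the opposite strand with Ulk4, and the library kit does not mark strand. Such overlaps in GENCODE mouse release M21 involve 12 of the 54 genes (Axin2, Ctnnb1, Dvl1, Dvl2, Fzd5, Fzd6, Lef1, Rspo3, Tcf7l1, Wnt11, Wnt5a and Wnt7b), whose values are uncertain to that extent.

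**Figure D1:**
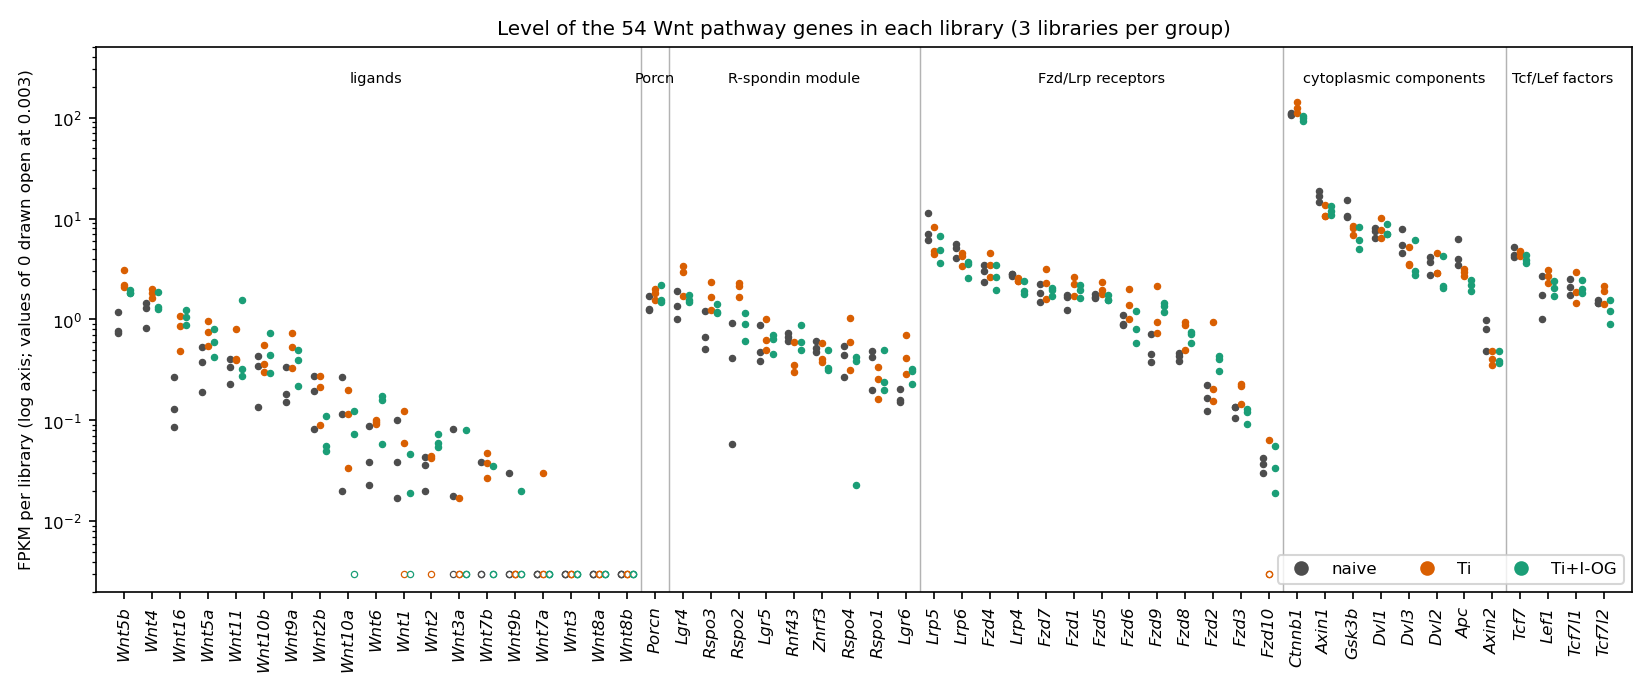
Level of each of the 54 genes in each of the 9 libraries, in FPKM on a log axis, grouped by role and coloured by group, with values of 0 drawn as open points at the bottom. Ctnnb1 stands alone at a mean of 111 FPKM, and the ligands lie at the low end, led by Wnt5b at a mean of 1.75 FPKM.

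The 12 genes below the filter had few reads in this tissue. They comprised 11 ligands (Wnt1, Wnt2, Wnt3, Wnt3a, Wnt6, Wnt7a, Wnt7b, Wnt8a, Wnt8b, Wnt9b and Wnt10a) and the receptor Fzd10. Wnt3, Wnt8a and Wnt8b had 0 counts in all 9 libraries, which allows up to 0.206 CPM in the shallowest of them. The other genes below the filter had 2 (Wnt7a) to 41 (Wnt10a) counts summed over the 9 libraries. Their fold changes are not given.

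In Ti against naive tibiae, 3 of the 42 tested genes of the set passed the test. The ligands Wnt16 and Wnt5b and the R-spondin receptor Lgr6 rose, and no tested member of the set fell. These 3 genes are 7.14% of the 42 tested, against 6.43% of all tested genes called in this comparison, 4.05% higher and 2.39% lower (edgeR's quasi-likelihood test, Benjamini-Hochberg adjusted p under 0.05), so the share called was close to the background. At an unadjusted p under 0.05 there were 19 of 42 (45.2%, 16 higher and 3 lower), against 26.9% of all tested genes. In 21 of 42 (50%) the 3 Ti and 3 naive libraries did not overlap, 15 of them higher and 6 lower, against 27.2% of all tested genes (14.3% higher and 12.9% lower). The median log2 fold change of the 42 was 0.46, and that of all tested genes was 0.01. DESeq2 called 9 of the 42, and the share of all tested genes that it called is not given here. The edgeR count of 3 depended on single libraries: it was 0 without naive replicate 3, without Ti replicate 1 or without Ti replicate 2, 7 without naive replicate 2 and 10 without Ti replicate 3.

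Wnt16, a ligand of cortical bone known to restrain osteoclast formation, was at 0.380, 0.187 and 0.126 CPM in naive tibiae, 1.27, 1.69 and 0.735 CPM in Ti tibiae, and 1.83, 1.65 and 2.10 CPM in Ti+I-OG tibiae. The naive libraries were all below the others, and the Ti+I-OG libraries overlapped the Ti libraries only at the highest Ti value. Against naive, the log2 fold change was 2.37 (SE 0.509, adjusted p = 0.0239) in Ti and 2.96 (SE 0.508, adjusted p = 0.0129) in Ti+I-OG tibiae. The naive values rest on 10, 4 and 3 counts. From summed counts of 17 (naive), 83 (Ti) and 98 (Ti+I-OG), the ratio to naive was 5.31 (95% interval 3.13 to 9.55) for Ti and 7.88 (4.68 to 14.1) for Ti+I-OG, intervals that cover counting error only. The call in Ti was lost without naive replicate 3, Ti replicate 1 or Ti replicate 2 (adjusted p up to 0.114), with only the 2 compared groups fitted (adjusted p = 0.0577) and on log2(FPKM + 1) without a filter (adjusted p = 0.0606). The call in Ti+I-OG was lost without Ti+I-OG replicate 2 (adjusted p = 0.0602).

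Wnt5b, a ligand of the branches that do not use beta-catenin and active in cartilage, was at 2.66, 1.73 and 1.55 CPM in naive, 4.63, 7.18 and 4.65 CPM in Ti, and 4.76, 4.602 and 4.25 CPM in Ti+I-OG tibiae. Every naive library was below every treated one, and Ti replicate 2 was the highest of all. The log2 fold change was 1.47 (SE 0.283, adjusted p = 0.0171) in Ti and 1.19 (SE 0.285, adjusted p = 0.0332) in Ti+I-OG against naive. Leaving out naive replicate 3, Ti replicate 1 or Ti replicate 2 ended the first call (adjusted p up to 0.0854). The second call remained in 2 of the 6 fits that omit a library, those without naive replicate 1 or 2 (highest adjusted p = 0.128), and was lost once transcript lengths entered the fit (adjusted p = 0.0592).

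The stretches of DNA just upstream of the starts of these ligands are shown because both Wnt16 and Wnt5b rose in each treated group against naive. Each is the 250 bases before a start annotated in RefSeq on GRCm38.p6, written 5′ to 3′ on the gene's strand. Capitals mark matches to 3 motifs searched on both strands. The TCF/LEF core was searched as CTTTGA. The GC box was searched as GGGCGG. The TATA box was searched as TATAAA. No matches overlapped each other in the windows shown. The windows are chr6:22287977-22288226 on the plus strand for Wnt16, and chr6:119544348-119544597 and chr6:119449387-119449636 on the minus strand for the outermost and innermost starts of Wnt5b.
Wnt16: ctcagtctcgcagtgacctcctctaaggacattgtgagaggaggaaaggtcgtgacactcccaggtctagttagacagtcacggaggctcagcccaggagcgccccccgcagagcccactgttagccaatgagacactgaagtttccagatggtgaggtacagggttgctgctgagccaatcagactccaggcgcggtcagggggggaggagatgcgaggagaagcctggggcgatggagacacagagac
Wnt5b outermost start: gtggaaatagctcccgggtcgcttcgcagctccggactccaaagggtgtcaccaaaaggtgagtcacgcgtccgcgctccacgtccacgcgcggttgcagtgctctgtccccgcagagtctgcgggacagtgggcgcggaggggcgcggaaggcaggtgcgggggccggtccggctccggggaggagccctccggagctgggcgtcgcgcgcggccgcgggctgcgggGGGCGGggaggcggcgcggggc
Wnt5b innermost start: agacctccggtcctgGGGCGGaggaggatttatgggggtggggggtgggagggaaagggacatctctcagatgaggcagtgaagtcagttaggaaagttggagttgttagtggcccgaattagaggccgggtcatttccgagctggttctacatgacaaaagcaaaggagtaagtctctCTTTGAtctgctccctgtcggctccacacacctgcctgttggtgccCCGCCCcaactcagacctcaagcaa
The Wnt16 window held none of the 3 motifs. The outermost Wnt5b window held 1 GC box, and the innermost held 1 TCF/LEF core and 2 GC boxes. The window of a middle Wnt5b start, chr6:119467212-119467461 on the minus strand, is not printed and held none of the 3 motifs. The RefSeq table held 36 of the 54 genes with 46 windows. The TCF/LEF core was in 5 of these 46 (10.9%), against 13.8% of all 32851 windows of the table, the GC box in 33 (71.7% against 32.7%), and the TATA box in 7 (15.2% against 12.4%). Median GC content was 68.6% in the 46 windows and 52.4% in all. A match describes the letters and is not a binding site.

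The other 6 tested ligands also had positive log2 fold changes in Ti against naive, so that all 8 were positive with a median of 0.97, but none of the 6 passed the test. Wnt4, a ligand that favours bone formation, was at 5.70, 5.28 and 3.18 CPM in naive, 6.80, 8.25 and 7.50 CPM in Ti, and 8.53, 6.25 and 5.50 CPM in Ti+I-OG tibiae. The Ti libraries lay above the naive ones, and the log2 fold change came to 0.67 (SE 0.254, adjusted p = 0.124). Wnt5a, whose signal through Ror2 acts on osteoclast precursors, had a log2 fold change of 1.01 (adjusted p = 0.143), and Wnt9a 1.33 (adjusted p = 0.113). Wnt10b, Wnt11 and Wnt2b had 0.68, 0.93 and 0.13. Porcn, which acylates all of them, was at 2.62, 2.24 and 2.14 CPM in naive, 2.88, 3.75 and 3.18 CPM in Ti, and 4.36, 2.95 and 2.95 CPM in Ti+I-OG tibiae. Its naive libraries lay below the treated ones, and its log2 fold changes against naive were 0.49 (adjusted p = 0.261) and 0.55 (adjusted p = 0.188).

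Summed per kilobase over the 9 ligands with a transcript length (the 8 tested ones and Wnt10a), the level was 4.19, 4.01 and 2.35 CPM per kilobase in naive, 7.04, 9.52 and 5.98 in Ti, and 7.59, 7.50 and 6.23 in Ti+I-OG libraries, with no overlap between naive and treated libraries. The make-up of that sum differed by ligand: Wnt16 gave a mean of 4.03% of it in naive tibiae, 10.2% in Ti tibiae and 16.9% in Ti+I-OG tibiae, while Wnt4 gave 32.05%, 24.5% and 22.6%. Wnt5b gave 25.4%, 32.3% and 28.3%. These sums and shares are descriptions without a test.

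**Figure D2:**
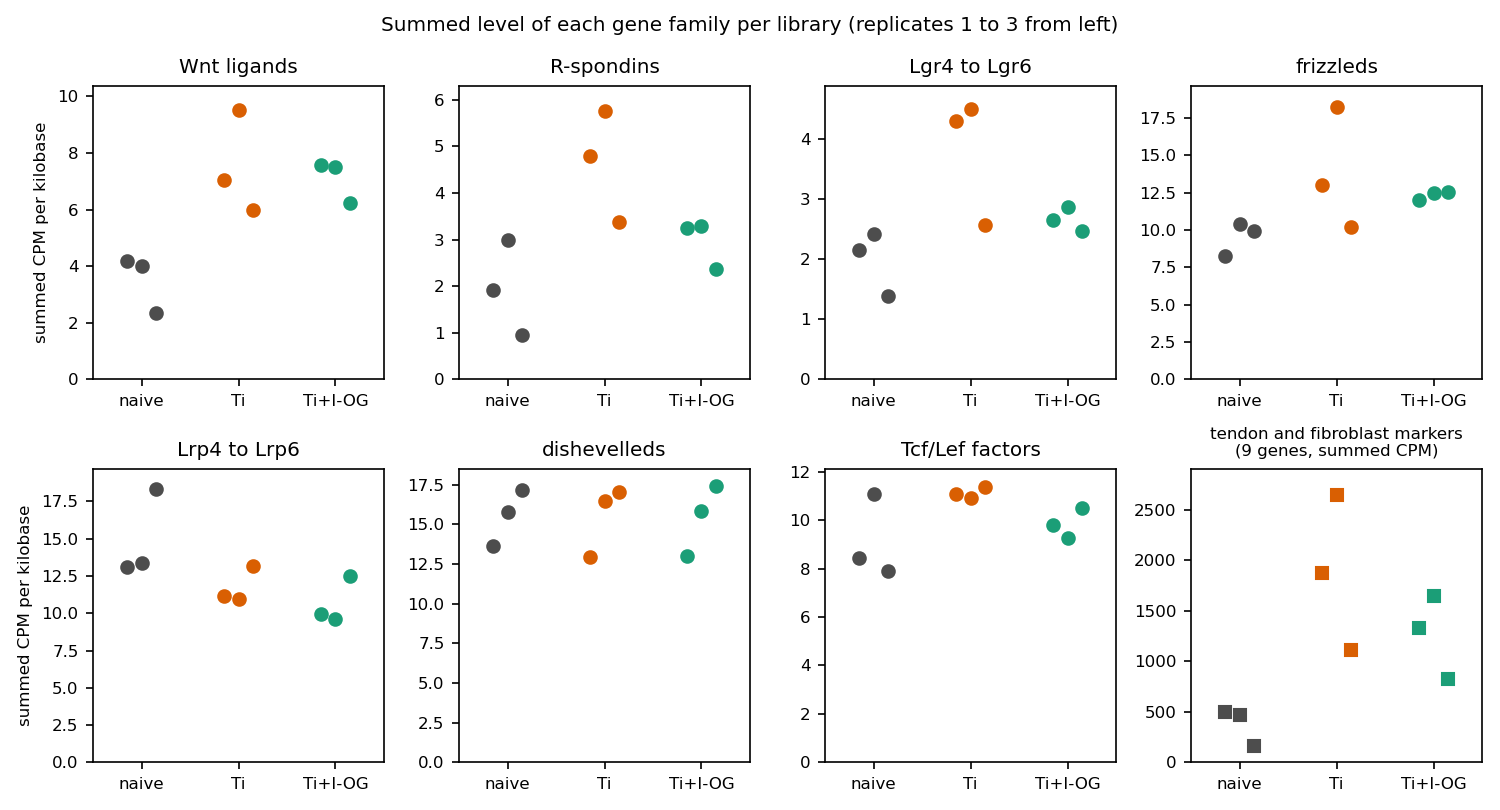
Summed level per kilobase of transcript (CPM per kilobase) of the genes of each family with a transcript length in each library (points, 3 per group), with the summed CPM of 9 tendon and fibroblast markers in the last panel. The ligand sum lies between 2.35 and 4.19 in naive and between 5.98 and 9.52 in Ti libraries, while the Lrp sum is highest in naive replicate 3 at 18.3.

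Tendon and fibroblast markers, like the ligand sum, were higher in every treated library than in every naive one. The summed level of 9 tendon and fibroblast genes was 167 to 500 CPM in naive, 1111 to 2641 in Ti and 823 to 1645 in Ti+I-OG libraries, and 7 of the 9 rose in Ti against naive. Of 8 osteoblast, 6 osteocyte and 5 chondrocyte genes, 4, 6 and 3 rose in the same comparison. Ti replicate 2, the highest Ti library for Wnt5b, Wnt16 and Lgr6, was also the highest for the tendon and fibroblast sum, and Ti replicate 3, the lowest for Wnt16 and Lgr6, was the lowest for it. The sums of skeletal muscle genes (3532, 5811 and 1643 CPM in the Ti libraries) and adipocyte genes (638, 889 and 393 CPM) had the same order. So did those of smooth muscle and pericyte genes (236, 304 and 132 CPM), osteocyte genes (301, 310 and 236 CPM) and endothelial genes (188, 213 and 184 CPM). The order is therefore not particular to the tendon and fibroblast list, and other lists did not share it. The osteoblast sum was 5417, 5163 and 5950 CPM, with Ti replicate 2 lowest and Ti replicate 3 highest. The chondrocyte sum was 565, 630 and 621 CPM and the osteoclast sum 1520, 1740 and 1555 CPM, with Ti replicate 1 lowest in both. In the Ti+I-OG libraries the tendon and fibroblast sum was 1331, 1645 and 823 CPM. Lgr6 had that order there (2.23, 2.40 and 1.59 CPM). Wnt16 had the reverse order (1.83, 1.65 and 2.10 CPM), and Wnt5b was highest in replicate 1 (4.76, 4.602 and 4.25 CPM). Osteoclast genes moved as well: 4 of 5 rose in Ti against naive, with sums of 439 to 650 CPM in naive, 1520 to 1740 CPM in Ti and 1088 to 1790 CPM in Ti+I-OG libraries. No gene of the connective tissue and skeletal lists was at 0 in all libraries, and the part of any of these cells in the ligand levels was not tested. In bulk tissue, fewer cells of a type and less RNA per cell cannot be told apart.

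Within the R-spondin module, Lgr6 was the gene that passed the test in Ti against naive. R-spondins are secreted proteins that bind Lgr receptors and keep the ubiquitin ligases Znrf3 and Rnf43 from removing Frizzleds. Lgr6, found on osteoprogenitors, was at 0.949, 1.31 and 0.964 CPM in naive, 2.74, 4.62 and 1.91 CPM in Ti, and 2.23, 2.40 and 1.59 CPM in Ti+I-OG tibiae. All treated libraries were above all naive ones. The log2 fold change was 1.53 (SE 0.379, adjusted p = 0.0377) in Ti and 0.95 (SE 0.387, adjusted p = 0.128) in Ti+I-OG against naive. The first call was lost in 4 of 6 fits with 1 library left out (without naive replicate 1 or 3, or Ti replicate 1 or 2, adjusted p up to 0.190). It was also lost in 5 of the 11 other settings: limma-voom (adjusted p = 0.0529), the 3 fits on FPKM (0.107 to 0.114) and the fit of the 2 compared groups only (0.0724). The 250 bases before the Lgr6 start, chr1:135105277-135105526 on the minus strand of GRCm38.p6 (RefSeq), held 1 GC box, in capitals, near the upstream end.
Lgr6: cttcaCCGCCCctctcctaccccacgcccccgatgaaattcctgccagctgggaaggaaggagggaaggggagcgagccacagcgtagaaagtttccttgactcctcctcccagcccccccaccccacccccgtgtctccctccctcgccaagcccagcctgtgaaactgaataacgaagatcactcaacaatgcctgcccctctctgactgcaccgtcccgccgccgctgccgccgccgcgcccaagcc

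Rspo2, which drives osteoblast differentiation in culture, had the second largest fold change of the 42 genes but missed the threshold. It was at 1.29, 2.76 and 0.168 CPM in naive, 7.08, 6.52 and 5.19 CPM in Ti, and 3.92, 2.13 and 2.83 CPM in Ti+I-OG tibiae. The Ti libraries were above all others, and naive replicate 3 was far below the other naive libraries. The log2 fold change in Ti against naive was 2.17 (SE 0.589, adjusted p = 0.0507), and it was 1.62 without naive replicate 3 and 3.07 without naive replicate 2. DESeq2 (adjusted p = 0.00388) and limma-voom (adjusted p = 0.0285) placed it past the threshold.

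Rspo3, the R-spondin of vessels and stroma, was at 1.94, 3.60 and 1.42 CPM in naive, 5.10, 7.05 and 3.77 CPM in Ti, and 4.02, 4.95 and 3.63 CPM in Ti+I-OG tibiae. Its treated libraries all lay above the naive ones, with log2 fold changes of 1.20 (adjusted p = 0.0638) and 0.86 (adjusted p = 0.134). With the replicate number as a block, the Ti+I-OG value was 0.93 and passed (adjusted p = 0.0215). Lgr4, the most abundant of the 3 Lgr receptors, was at 6.46, 9.34 and 4.69 CPM in naive, 14.6, 16.7 and 8.47 CPM in Ti, and 8.23, 8.72 and 8.90 CPM in Ti+I-OG tibiae. Ti replicate 3 fell within the range of the naive libraries, and the log2 fold change was 0.96 (SE 0.282, adjusted p = 0.0637). Of the 9 tested genes of the module, 6 had positive and 3 negative log2 fold changes in Ti (median 0.70). The negative ones were Rspo1 (-0.46), Rnf43 (-0.63) and Znrf3 (-0.06). Lgr5 and Rspo4 had 0.55 and 0.70.

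**Figure D3:**
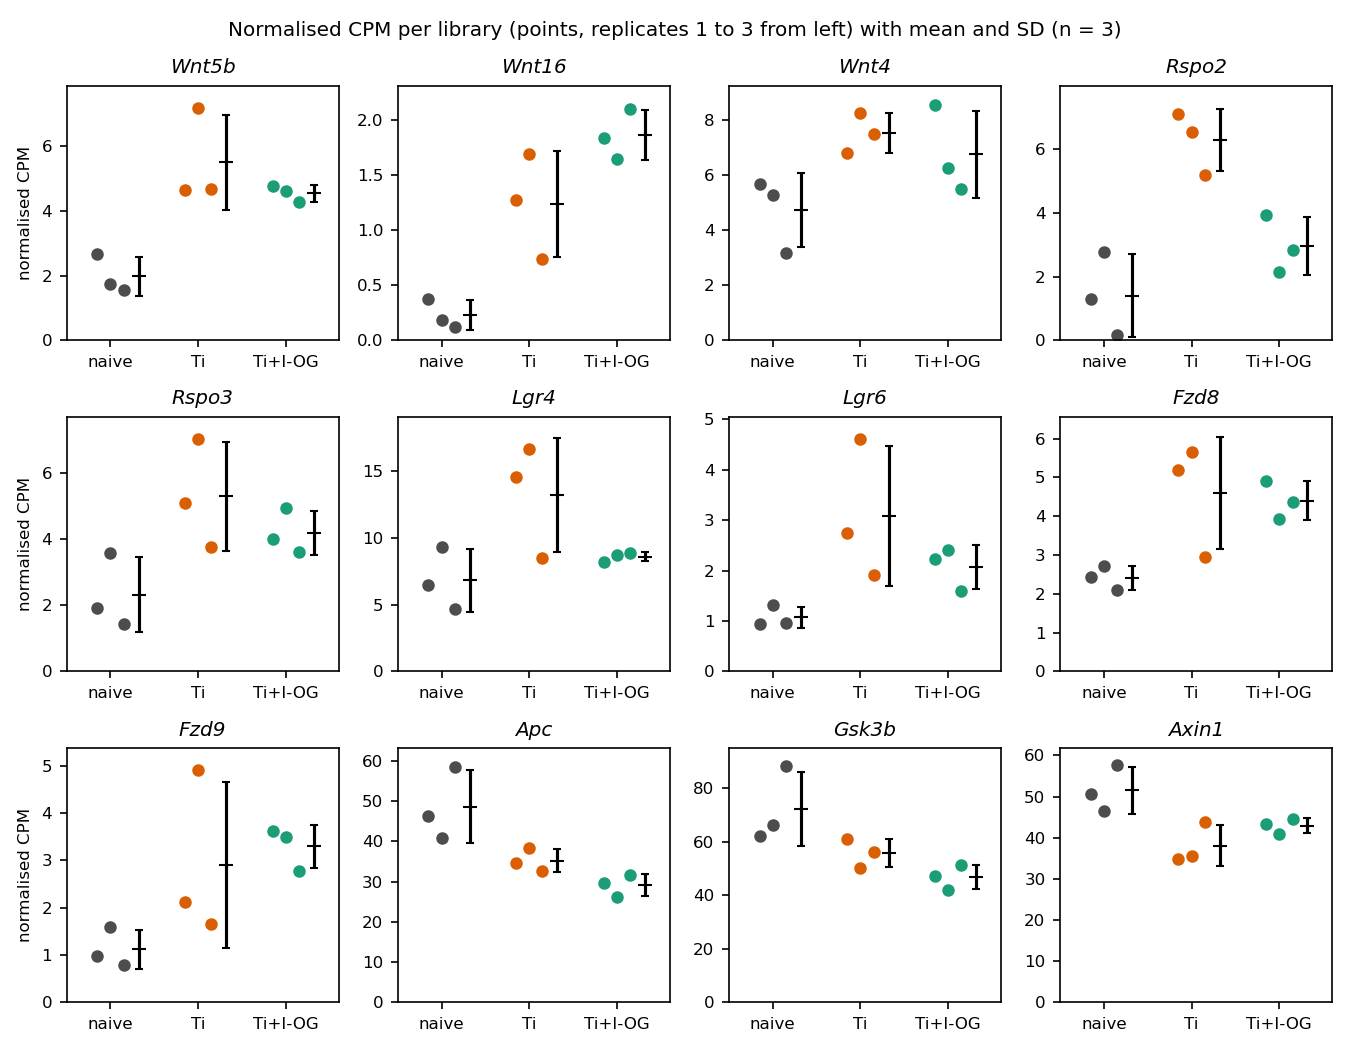
CPM of 12 of the genes in each of the 9 libraries by group (points), with the group mean and an SD bar (n = 3) beside them. Wnt16, Wnt5b and Lgr6 are higher in every Ti library than in every naive library, and Apc and Gsk3b are lower in every Ti+I-OG library than in every naive library.

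Frizzleds and Lrp genes had fold changes of opposite sign in Ti tibiae, and none of the 12 passed the test. The signs of Lrp4 and Lrp6 each turned in 2 of the 17 alternatives. All 9 tested Frizzleds, the receptors with the Wnt-binding domain, had positive log2 fold changes, from 0.35 (Fzd4) to 1.42 (Fzd2), and Lrp4, Lrp5 and Lrp6 had -0.11, -0.57 and -0.15. Fzd9, a Frizzled with a role in osteoblast mineralisation, was at 0.987, 1.59 and 0.796 CPM in naive, 2.12, 4.91 and 1.67 CPM in Ti, and 3.62, 3.50 and 2.78 CPM in Ti+I-OG tibiae. Each treated library was above each naive one. Its log2 fold change was 1.38 (SE 0.433, adjusted p = 0.0762) in Ti and 1.56 (SE 0.436, adjusted p = 0.0495) in Ti+I-OG, where Fzd9 rose. Without Ti replicate 2 the value in Ti was 0.75 (adjusted p = 0.369), and Fzd9 in Ti passed in 4 of the 17 alternatives. The call in Ti+I-OG remained in 1 of 6 fits with 1 library left out, the fit without naive replicate 2 (adjusted p up to 0.173). It was also lost in 6 of the 11 other settings, those with RLE factors, limma-voom, the 3 fits on FPKM and transcript lengths (adjusted p from 0.0507 to 0.0980). The 250 bases before its start, chr5:135251048-135251297 on the minus strand of GRCm38.p6 (RefSeq), held 1 GC box, in capitals.
Fzd9: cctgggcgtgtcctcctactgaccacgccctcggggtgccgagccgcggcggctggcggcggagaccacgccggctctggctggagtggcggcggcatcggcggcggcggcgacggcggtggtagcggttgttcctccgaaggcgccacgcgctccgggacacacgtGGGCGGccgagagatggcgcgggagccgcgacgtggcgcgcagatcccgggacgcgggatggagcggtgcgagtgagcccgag

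Fzd8 was at 2.43, 2.71 and 2.09 CPM in naive, 5.19, 5.65 and 2.94 CPM in Ti, and 4.91, 3.92 and 4.36 CPM in Ti+I-OG tibiae. All its treated libraries exceeded its naive ones, with log2 fold changes of 0.93 (adjusted p = 0.0690) and 0.87 (adjusted p = 0.0713). The Ti+I-OG value was 0.88 in the fit with the replicate number as a block, where it passed (adjusted p = 0.0339). Fzd2, chosen after its values were seen, was at 0.567, 3.42 and 0.735 CPM in Ti against 0.419 to 0.794 CPM in naive libraries, so that Ti replicate 2 alone was above the naive range. Lrp5, the co-receptor whose mutations change bone mass, was at 34.2, 29.7 and 53.96 CPM in naive, 22.5, 20 and 37.1 CPM in Ti, and 20.3, 23.7 and 34.6 CPM in Ti+I-OG tibiae. The third library was the highest in each group and the groups overlapped, with log2 fold changes of -0.57 (adjusted p = 0.225) and -0.58 (adjusted p = 0.195) against naive. Each Ti and each Ti+I-OG library was below the naive library of the same number. With the replicate number as a block, Lrp5 passed in Ti+I-OG against naive (-0.57, adjusted p = 0.00842), though not with transcript lengths added (adjusted p = 0.0678). In Ti against naive it passed in 2 of the 17 alternative settings. Lrp6 was at 34.7, 43.6 and 46.5 CPM in naive, 39.9, 41.1 and 31.6 CPM in Ti, and 30.6, 26.6 and 34.1 CPM in Ti+I-OG tibiae. The Ti and naive libraries of Lrp6 overlapped, and all 3 Ti+I-OG libraries lay below naive (log2 fold change -0.45, adjusted p = 0.0921).

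Cytoplasmic components had a median log2 fold change of -0.39 in Ti against naive, with 3 positive, 5 negative and none past the test. Apc, the scaffold of the destruction complex, was at 46.2, 40.9 and 58.6 CPM in naive, 34.7, 38.4 and 32.7 CPM in Ti, and 29.8, 26.2 and 31.6 CPM in Ti+I-OG tibiae. The 3 groups did not overlap, and the order was naive, Ti and Ti+I-OG from high to low. The log2 fold change was -0.46 (adjusted p = 0.0879) in Ti and -0.73 (SE 0.154, adjusted p = 0.0253) in Ti+I-OG against naive.

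Gsk3b, the kinase that phosphorylates beta-catenin, was at 62.1, 66.4 and 88.2 CPM in naive, 60.9, 50.4 and 56.3 CPM in Ti, and 47.1, 42.04 and 51.3 CPM in Ti+I-OG tibiae. Naive libraries lay above all treated ones, with naive replicate 3 highest. Its log2 fold change was -0.37 (adjusted p = 0.149) in Ti and -0.63 (SE 0.154, adjusted p = 0.0364) in Ti+I-OG, where both Apc and Gsk3b fell. Of the 6 fits that omit a library, each call remained in 2, for Apc those without naive replicate 2 or Ti+I-OG replicate 3 and for Gsk3b those without naive replicate 1 or 2. The highest adjusted p was 0.114 for Apc and 0.146 for Gsk3b. Both were lost when transcript lengths entered the fit (log2 fold change -0.24, adjusted p = 0.252, and -0.32, adjusted p = 0.123) and narrowly on log2(FPKM + 1) without a filter (adjusted p = 0.0505 and 0.0503). With block and lengths together, Apc did not pass (adjusted p = 0.175) and Gsk3b did (adjusted p = 0.0428). Over all tested genes, longer transcripts had lower fold changes in this comparison, with a Spearman correlation across genes of -0.401 (14211 genes, which share the same libraries). In Ti against naive it was -0.240. The derived transcript lengths were 1578, 2262 and 2293 bases for Wnt16, Wnt5b and Fzd9, and 12295 and 6807 for Apc and Gsk3b. Lgr6, which rose in Ti, had 6677 bases. Beyond the fits with lengths, the part of length in these values was not tested.

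The Gsk3b window, chr16:38088751-38089000 on the plus strand of GRCm38.p6 (RefSeq), held 1 TATA box and 1 TCF/LEF core, both in capitals and both on the opposite strand.
Gsk3b: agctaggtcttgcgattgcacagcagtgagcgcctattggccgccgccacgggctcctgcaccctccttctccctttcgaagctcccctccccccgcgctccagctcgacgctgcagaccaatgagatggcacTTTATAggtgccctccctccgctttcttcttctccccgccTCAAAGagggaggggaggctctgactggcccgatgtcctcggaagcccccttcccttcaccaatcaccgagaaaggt

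Axin1, a second scaffold of the complex, was at 50.7, 46.4 and 57.6 CPM in naive, 34.9, 35.5 and 43.8 CPM in Ti, and 43.4, 40.9 and 44.6 CPM in Ti+I-OG tibiae. Naive libraries were the highest, and the log2 fold changes were -0.44 (adjusted p = 0.0734) in Ti and -0.26 (adjusted p = 0.212) in Ti+I-OG. Axin2, both a component and a widely used target gene of beta-catenin signalling, had log2 fold changes of -0.52 (SE 0.311, adjusted p = 0.297) and -0.38 (adjusted p = 0.429). Each Ti library of Axin2 was below each naive one. Ctnnb1 was at 374, 365 and 351 CPM in naive, 441, 506 and 396 CPM in Ti, and 409, 376 and 367 CPM in Ti+I-OG tibiae. Its Ti libraries lay above naive and the log2 fold change came to 0.30 (SE 0.135, adjusted p = 0.178), and its Ti+I-OG libraries overlapped both other groups. Dvl1, Dvl2 and Dvl3 had 0.23, 0.05 and -0.40 in Ti.

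The 4 Tcf/Lef factors had positive log2 fold changes in Ti, from 0.10 (Tcf7l1) to 0.63 (Lef1), and none passed the test. Tcf7, best known from T cells, was at 8.96, 12.05 and 8.88 CPM in naive, 11.1, 11.3 and 10.3 CPM in Ti, and 9.42, 10.1 and 10.5 CPM in Ti+I-OG tibiae, so the groups overlapped throughout (log2 fold change 0.13 in Ti, adjusted p = 0.642). Lef1, which B cell precursors and osteoblasts also express, was at 4.78, 7.05 and 2.68 CPM in naive, 7.27, 6.68 and 8.52 CPM in Ti, and 7.24, 4.95 and 5.84 CPM in Ti+I-OG tibiae. Its lowest library was naive replicate 3, where 7 B cell genes summed to 110 CPM against 211 and 308 CPM in the other naive libraries and 304 to 364 CPM in Ti libraries. The sum of 8 T cell genes was 54.1 to 90.7, 57.5 to 68.6 and 53.5 to 65.7 CPM in the 3 groups. The part of these cells in the Tcf7 and Lef1 levels was not tested.

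With the hydrogel, no gene of the set passed the test against Ti alone. The count was 0 of 42, also by DESeq2, limma-voom and every other alternative run, against 0.0422% of all tested genes called. At an unadjusted p under 0.05 there were 2 of 42 (4.76%), Lgr4 lower and Rnf43 higher, against 7.84% of all tested genes. In 3 of 42 (7.14%), Apc, Fzd3 and Rspo2, the Ti+I-OG libraries were all below the Ti libraries, and in 0 all above. The share of all tested genes without overlap was 14.5%, with 7.75% higher and 6.71% lower. Of the 42 log2 fold changes, 30 were negative and 12 positive, with a median of -0.18 against -0.00 for all tested genes. Longer transcripts had lower fold changes across all tested genes here too, with a Spearman correlation of -0.324. The median log2 transcript length was 11.8 in the 42 and 11.4 in all tested genes. Across the 17 alternatives, which include fits with transcript lengths, the median of the 42 ran from -0.27 to -0.08.

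The intervals show what sizes these libraries leave possible. For Wnt5b the log2 fold change of Ti+I-OG against Ti was -0.28 (95% interval -0.87 to 0.32), and for Wnt16 it was 0.59 (-0.37 to 1.54). Rspo2 had -1.07 (-2.30 to 0.16), Lgr6 -0.58 (-1.39 to 0.22) and Lgr4 -0.62 (-1.24 to -0.01, adjusted p = 0.630). Rnf43, whose values per library were chosen for printing after they were seen, was at 2.43, 2.66 and 2.35 CPM in naive, 1.37, 1.20 and 2.25 CPM in Ti, and 2.53, 2.06 and 3.40 CPM in Ti+I-OG tibiae, with a log2 fold change of 0.74 (0.01 to 1.46, adjusted p = 0.630). Narrower intervals were found for the abundant genes, such as Ctnnb1 (-0.22, -0.52 to 0.07), Gsk3b (-0.25, -0.59 to 0.08) and Axin1 (0.17, -0.12 to 0.47). By role, the medians were -0.21 for ligands, -0.34 for the R-spondin module, -0.16 for Fzd and Lrp receptors (11 of 12 negative), -0.08 for cytoplasmic components and -0.22 for Tcf/Lef factors. Tendon and fibroblast markers had a median of -0.49 and chondrocyte markers of -1.22 in this comparison, with none of their 14 genes past the test, and erythroid genes had the highest sums in Ti+I-OG tibiae. Their part in these values was not tested.

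**Figure D4:**
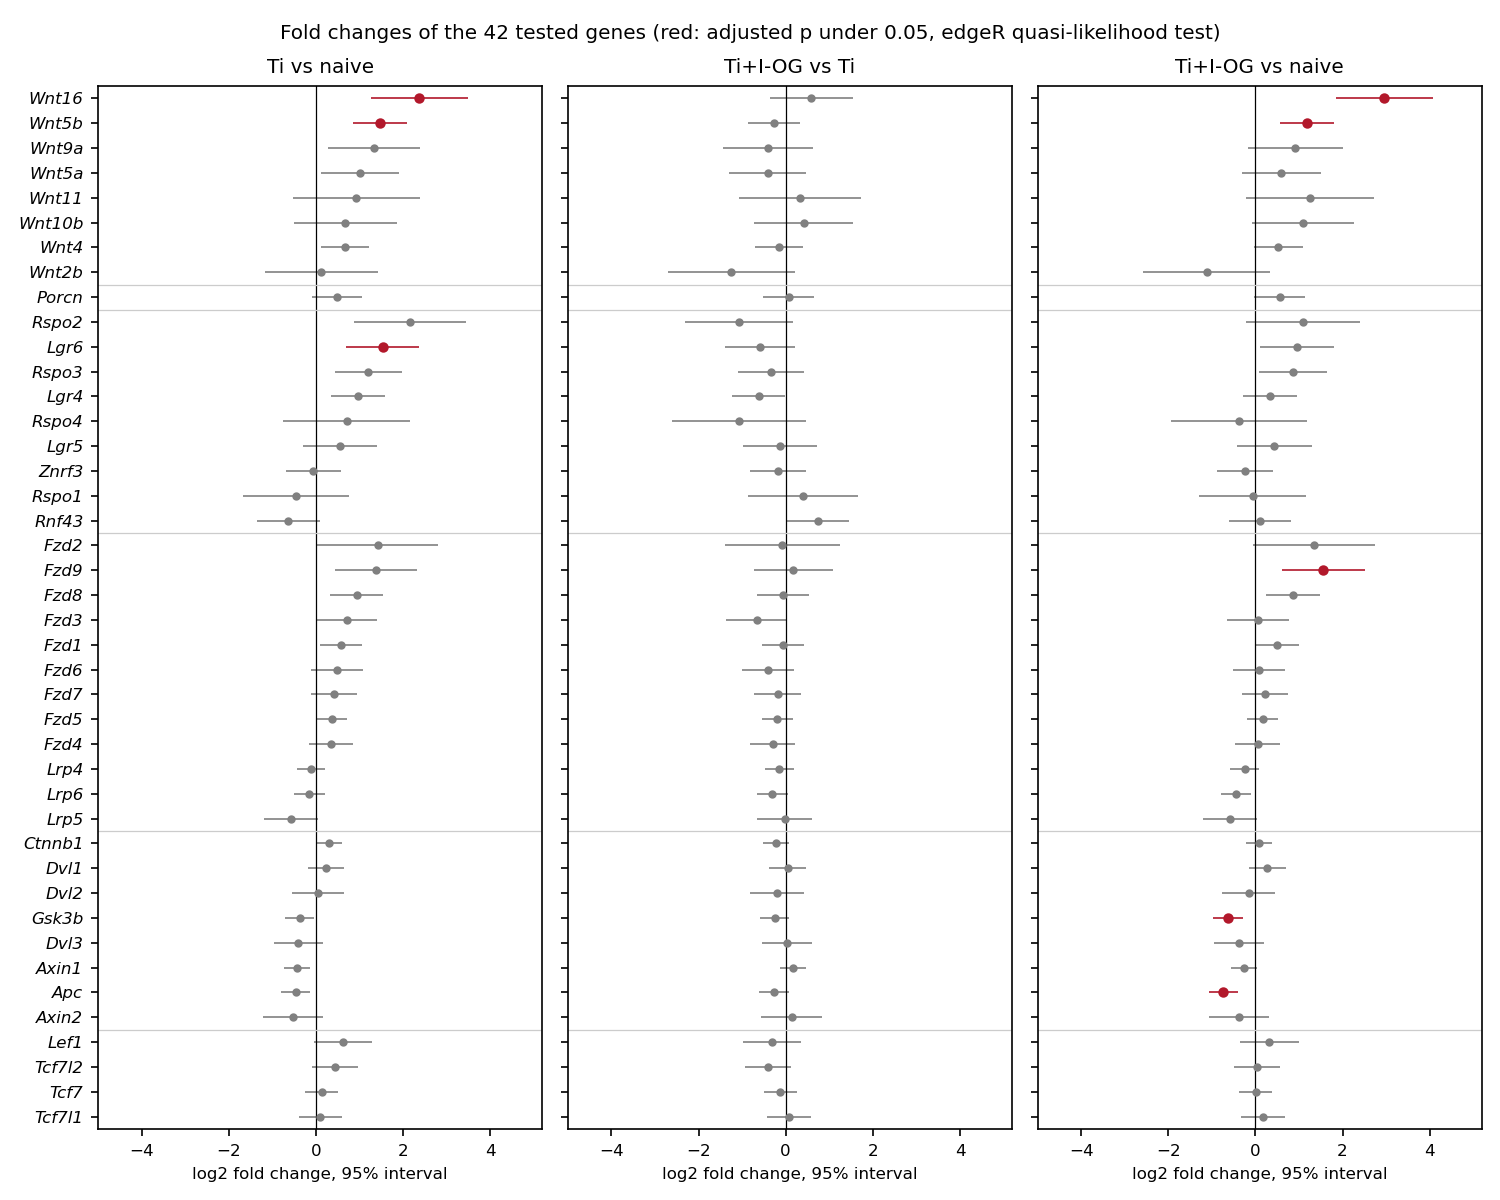
Log2 fold change of each tested gene with its 95% interval in the 3 comparisons, ordered by role, with red points for adjusted p under 0.05 and grey points for the rest. Red points are 3 in Ti against naive, 0 in Ti+I-OG against Ti and 5 in Ti+I-OG against naive.

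In Ti+I-OG tibiae against naive tibiae, Wnt16, Wnt5b and Fzd9 rose and Apc and Gsk3b fell. These 5 genes are 11.9% of the 42 tested, against 8.26% of all tested genes (3.84% higher and 4.43% lower). At an unadjusted p under 0.05 there were 10 of 42 (23.8%), against 29.8% of all tested genes, and 13 of 42 (31.0%) did not overlap between the groups, 9 higher and 4 lower, against 35.5% (18.7% higher and 16.9% lower). Medians by role were 1.01 for ligands, 0.34 for the R-spondin module, 0.12 for Fzd and Lrp receptors, -0.32 for cytoplasmic components and 0.10 for Tcf/Lef factors. With the replicate number as a block the count was 8, and the added genes were Fzd8, Rspo3 and Lrp5. It was 1 (Wnt16) with transcript lengths in the fit. For these settings the share of all tested genes called is not given, so neither count can be set against a background. Leaving out naive replicate 1, naive replicate 3, or Ti+I-OG replicate 1, 2 or 3 gave 3, 1, 1, 0 and 2. Both comparisons with naive use the same 3 naive libraries, and each comparison with Ti the same 3 Ti libraries, so the 3 sets of values are not independent of each other.

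The rest of the pathway was followed with 111 further genes in 6 lists, 100 of them tested. In Ti against naive, 16 passed (16%, 11 higher and 5 lower), against 6.43% of all tested genes (4.05% higher and 2.39% lower), and 7 of the 16 were among the 17 tested secreted inhibitors. The lists were chosen with earlier results of these data known, so the excess over the background cannot be set apart from that choice. Sfrp2, which binds Wnt ligands, had a log2 fold change of 3.22 (adjusted p = 0.00318), Frzb 3.16 (adjusted p = 0.0173), the Dickkopf relative Dkk3 2.30 (adjusted p = 0.00634), and Sost, the osteocyte inhibitor of Lrp5 and Lrp6, 1.32 (adjusted p = 0.0113). Among 17 tested genes listed as targets of beta-catenin signalling, Sox9 (1.83, adjusted p = 0.0268), Bmp4 (1.24, adjusted p = 0.0314) and Ccnd1 (0.80, adjusted p = 0.0493) rose and none of that list fell. Sox9 passed in 11, Bmp4 in 11 and Ccnd1 in 7 of the 17 alternative settings. Axin2, a target that is in the set and not in that list, had -0.52 (adjusted p = 0.297), with each Ti library below each naive one. Sox9 is also a chondrocyte marker and is regulated by many other signals.

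Of the other lists in Ti tibiae, the Norrin co-receptor Tspan12 rose (1.44, adjusted p = 0.0239) among 10 genes of ligand secretion and alternative receptors. The cytoskeletal linker Macf1 fell (-0.72, adjusted p = 0.0342) among 15 further cytoplasmic components. The nuclear cofactors Chd8 (-0.72, adjusted p = 0.0268) and Bcl9 (-0.91, adjusted p = 0.0354) fell among 20, and the planar polarity cadherins Celsr3 (-1.43, adjusted p = 0.0322) and Celsr1 (-1.29, adjusted p = 0.0493) fell among 25 genes of that branch. In Ti+I-OG against Ti, 0 of the 100 passed, against 0.0422% of all tested genes. The smallest p of each list belonged to Frzb (-1.74), Wls (-0.38), Btrc (0.35), Tle2 (-0.69), Sox9 (-1.28) and Camk2d (-0.25), with adjusted p from 0.628 to 0.670.

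In Ti+I-OG against naive, 9 of the 100 passed (9%), close to the 8.26% of all tested genes. Sfrp2 (2.93), Dkk3 (1.69), Sost (1.06) and Bmp4 (1.41) rose, and Macf1 (-0.95), Tnks (-0.76), Bcl9 (-0.93), Chd8 (-0.58) and Celsr1 (-1.27) fell, with adjusted p from 0.00625 to 0.0491. Ryk, an alternative Wnt receptor, had 0.89 (adjusted p = 0.0580) and was the nearest of its list. With the replicate number as a block, 27 of the 100 passed, and the share of all tested genes called in that fit is not given. The count of 16 in Ti against naive ranged from 2 to 22, and this count of 9 from 1 to 17, when 1 library at a time was left out. Both fell to 5 or fewer without naive replicate 3 or without replicate 1 or 2 of the treated group, the second also without naive replicate 1 or Ti+I-OG replicate 3. The Wnt pathway as the deposited table annotates it from KEGG held 169 genes, 53 of them members of the set, with 143 tested. Of these, 13 (9.09%) passed in Ti against naive, 0 in Ti+I-OG against Ti and 11 (7.69%) in Ti+I-OG against naive, beside 6.43%, 0.0422% and 8.26% of all tested genes. The last share was below its background. Leaving out the members, 10 of 102 tested (9.80%), 0 and 6 (5.88%) passed in the same 3 comparisons.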

How the data were processed

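Polyadenylated tibia RNA was sequenced in 9 libraries, and the authors deposited 1 table of 22183 genes with estimated counts and FPKM per library. The deposited estimated counts need not be whole and were rounded here. FPKM values, as deposited by the authors, served to rank levels, to derive transcript lengths and for an alternative test. Per the submitters' processing notes, the tools were RSEM, StringTie 1.3.1, fastp, edgeR and DESeq2, with no role stated. Genome build, annotation and aligner were not given in the sources used here. Coordinates are therefore printed only for promoter windows from RefSeq. GENCODE M21 served to find overlapping exons.

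Groups came from the treatment labels. Genes passing edgeR's filterByExpr (14211) were fitted together in R 4.3.3 with edgeR 4.0.16 (TMM, quasi-likelihood, 1 mean per group, all 9 libraries), and p-values were adjusted over all of them by Benjamini-Hochberg, two-sided, with a threshold of 0.05. The 95% intervals use the standard error and the test's degrees of freedom. CPM use TMM-scaled library sizes. DESeq2 1.42.0 and limma 3.58.1 served as alternatives. The fitting code was run on simulated counts with a fixed spread and with changes planted only in better-counted genes. That run does not bear on scarce genes such as Wnt16.

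Members and lists were chosen with earlier results of these data known. Values per library are given for members past the threshold in any comparison, for those with an unadjusted p under 0.01, and for the 2 of each role with the highest mean FPKM. Fzd2 and Rnf43 were added after their values were seen. Of the other lists, at most 4 genes per list and comparison are named by smallest p.

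Deviations of same-numbered libraries from their group means correlated at -0.00947, 0.387 and 0.291 between Ti and naive, at 0.123, 0.259 and 0.270 between Ti+I-OG and Ti, and at 0.252, 0.150 and 0.335 between Ti+I-OG and naive. The titles give the numbers, and no label says what they mark. Libraries were treated as paired by number only where every value exceeded 0.1, which leaves out Ti against naive. That rule rests on these same data and cannot show that the libraries were paired. The fit with the replicate number as a block used all 9 libraries, Ti included, for every comparison. No replicate pair agreed within sampling noise, since chi-square divided by its degrees of freedom ran from 13.4 to 138.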

Additional observations from a re-analysis of the deposited data

How the results depend on the processing

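Counts of genes called, fold changes and medians by role were recomputed under 17 alternatives. The share of all tested genes called under each is not given here, so a changed count cannot be read as particular to these genes. For Ti+I-OG against Ti the count stayed at 0 of 42 and 0 of 100 in all 17 alternatives. For Ti against naive the count of 3 became 9 with DESeq2, 1 with limma on log2(FPKM + 1) without a filter, 1 when only the 2 compared groups were fitted, and 0 to 10 with 1 library left out. The count of 5 for Ti+I-OG against naive became 2 with log2(FPKM + 1) without a filter, 1 with transcript lengths in the fit, and 0 to 7 with 1 library left out. Among the other pathway genes, the count of 16 in Ti became 8 and 7 with log2(FPKM + 1) and log2(FPKM + 0.1), 2 without the filter, 5 with 2 groups only and 2 to 22 with 1 library left out. The count of 9 in Ti+I-OG became 20 with DESeq2, 15 and 15 on the FPKM scales, 5 with transcript lengths and 1 to 17 with 1 library left out. The cause of these shifts was not tested.

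With the replicate number as a block, the counts were 13 for the members and 34 for the other genes in Ti against naive, where the numbers do not pair by the rule used, and 16 and 29 with transcript lengths added. In Ti+I-OG against naive the block gave 8 and 27, and 9 and 14 with lengths added. In Ti against naive, 1 of the 3 same-numbered pairs did not correlate.

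The direction of Wnt16, Wnt5b, Lgr6 and Rspo2 in Ti against naive, and of Wnt16, Wnt5b, Fzd9, Apc and Gsk3b in Ti+I-OG against naive, was kept in every alternative. In Ti against naive, some named members outside the 3 calls passed in part of the 17. These were Rspo2 in 8, Lgr4 and Rspo3 in 5 each, and Fzd8, Fzd9 and Axin1 in 4 each. Apc, Lrp5 and Wnt4 passed in 2 each, Ctnnb1 in 1, and Gsk3b, Lrp6, Tcf7, Lef1 and Porcn in 0. Among the 18 tested members with values for every library by the naming rule, signs turned only for values that were not called. Lrp6 in Ti against naive was 0.0924 with transcript lengths and 0.0925 with the block and lengths. In Ti+I-OG against Ti, Fzd8 was 0.0482 and 0.0943 under those settings and -0.30 to 0.11 with 1 library left out, Lrp5 was 0.00253 with limma-voom, 0.0658 and 0.0880 under those settings and -0.28 to 0.30 with 1 library left out, Porcn was -0.0383, -0.0612 and -0.0383 on the FPKM scales, -0.0165 with block and lengths and -0.15 to 0.18 with 1 library left out, and Fzd9 was -0.10 to 0.80 in the same way. In Ti+I-OG against naive, Ctnnb1 was -0.13 on all 3 FPKM scales. Tcf7 was -0.0108 with RLE factors, -0.0100 with DESeq2, -0.00946 without the filter, -0.17, -0.20 and -0.17 on the FPKM scales, -0.0416 with lengths, -0.0291 with the block and lengths, -0.00285 with 2 groups only and -0.10 to 0.16 with 1 library left out. Of the other 24 tested members, 19 kept their sign in every alternative in Ti against naive, 11 in Ti+I-OG against Ti and 13 in Ti+I-OG against naive. Of the 24, 4 passed in at least 1 alternative in Ti against naive (Wnt9a, Fzd1, Fzd3 and Fzd5), 0 in Ti+I-OG against Ti, and 2 in Ti+I-OG against naive (Fzd1 and Fzd5), each in at most 2 of the 17. Medians by role kept their sign in Ti against naive. They ranged from -0.26 to 0.04 for cytoplasmic components in Ti+I-OG against Ti, and from -0.10 to 0.19 for Tcf/Lef factors and -0.07 to 0.43 for Fzd and Lrp receptors in Ti+I-OG against naive. The other medians by role printed above kept their sign. On the FPKM scale the median log2 fold change of all genes shifted by -0.08, -0.10 and -0.19 in the 3 comparisons, and by under 0.1 in the other settings. Depth limits the scarce ligands most, since 3 counts equal 0.114 to 0.206 CPM.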
